A study of Homo sapiens with 6 samples.

Results

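The genes described here are 10 members of the human S100 family of small calcium-binding proteins: *S100A8*, *S100A9*, *S100A2*, *S100A4*, *S100A6*, *S100A10*, *S100A11*, *S100A13*, *S100A14* and *S100A16*. They were chosen by symbol, with the results of the comparison below already known, and they are 10 of the 12499 genes in the count table. Their differences between the groups are therefore given as descriptions, with no p-value. RNA was sequenced from 6 libraries of HaCaT cells, a single spontaneously immortalized human keratinocyte line, to compare cells given lentivirus LV-*ATF7* with cells given lentivirus LV-NC, 3 libraries each. LV-*ATF7* carries the *ATF7* coding sequence in the pLVX-IRES-Puro vector, the promoter that drives it and the content of LV-NC are not given in the sources used here, and cells of both groups were infected for 48 hours and then kept for 24 hours in 25 mM glucose. The total count per library was 16686472 to 18287923 for LV-NC and 18666696 to 20562768 for LV-*ATF7*.

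S100 proteins carry a pair of EF-hand motifs, work mostly as dimers and change shape on binding calcium, which lets them grip target proteins inside the cell. Some also leave the cell, often without a secretion signal, and act on receptors of neighboring cells as danger signals. Most of their genes lie side by side in a cluster on chromosome 1 that also holds filaggrin, involucrin and other genes of the skin barrier. S100A8 and S100A9 are scarce in resting epidermis and abundant in wounded, inflamed or psoriatic epidermis, as well as in neutrophils.

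Expression is given as TMM-normalized CPM, counts scaled to a common library total with a correction for differences in composition. A log2 fold change compares LV-*ATF7* with LV-NC, so 1 unit is a doubling, and SE is its standard error. A gene was past the threshold where the Benjamini-Hochberg adjusted p-value of edgeR's quasi-likelihood test over all 12462 genes tested was under 0.05. Values with ± are mean ± SD of 3 libraries. No source states that the libraries of a group came from separate cultures, so p-values measure the spread between these libraries, which may be technical. In bulk RNA, fewer cells of a type and less RNA per cell cannot be told apart.

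*ATF7* itself went against the labels. Its level was 50.6, 46.4 and 52.2 CPM under the label LV-NC and 21.9, 25.7 and 28.0 CPM under the label LV-*ATF7*, a log2 fold change of −0.98 (SE 0.12, edgeR adjusted p = 1.89e-04), with 43.8% of its exon bases shared with other annotated genes. Every direction below is therefore given by label, and the counts of these 6 libraries hold no rise in *ATF7*. LV-NC replicate 1 stood apart from the other LV-NC libraries, with a chi-square per gene of 66.8 to 74.6 against them and of 2.83 to 10.4 between the other libraries of the same group. For part of the genes that rest on it, the log2 fold change is also given without it. Of 12 keratinocyte markers, 11 had a row, of which 5 were higher and 2 lower in LV-*ATF7* and 4 were not past the threshold. The share past the threshold was 63.6%, near the 67.6% of all genes tested. The summed level of these markers was 1242 to 1843 CPM in LV-NC and 6079 to 6694 CPM in LV-*ATF7*. The difference was mostly *KRT5*, with smaller parts of *ITGB4* and *SFN*. *KRT14*, a defining basal keratin, was at 0.375, 12.5 and 11.3 CPM in LV-NC and at 1.45, 1.38 and 1.82 CPM in LV-*ATF7*, while *KRT5* reached 3224 to 3622 CPM in LV-*ATF7*. *KRT14* was among the 2 lower markers, but its groups overlapped. It passed the filter on low counts only through the libraries labeled LV-*ATF7*, and DESeq2 did not call it. The call was also lost with a replicate block and on leaving out any library but LV-NC replicate 1. Of 12 myeloid markers, listed because S100A8 and S100A9 are abundant in myeloid cells, only *CSF1R*, *CD14* and *ITGAM* had a row, summing to 5.57 to 8.13 CPM in LV-NC and 9.38 to 12.7 CPM in LV-*ATF7*, with log2 fold changes of −2.18 for *CSF1R*, 2.33 for *CD14* and −0.41 for *ITGAM*. Summed markers of fibroblasts, with 2 of 10 genes tested, were at 33.1 to 42.7 CPM in LV-NC and 17.3 to 21.7 CPM in LV-*ATF7*. The log2 fold changes were −1.13 for *COL1A1* and 2.24 for *DCN*. Those of melanocytes, with 2 of 7 tested, summed to 17.5 to 24.8 CPM in LV-NC and 12.2 to 12.995 CPM in LV-*ATF7*. Of these, *MITF* was lower and *PMEL* higher, with log2 fold changes of −1.21 and 1.13. Those of endothelium, with 2 of 5 tested, summed to 1.12 to 5.50 CPM in LV-NC and 84.6 to 89.9 CPM in LV-*ATF7*. In LV-*ATF7* nearly all of the endothelial sum was *CDH5*, and the log2 fold changes were 4.78 for *CDH5* and 2.14 for *VWF*. *DCN* and *VWF* passed the filter on low counts only through the LV-*ATF7* libraries. LV-NC replicate 1 held all LV-NC counts of *DCN*. Without that library the log2 fold change was 8.62 for *DCN* and −0.9 for *ITGAM*. The part of these shifts in the S100 results was not tested.

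Of the 10 S100 genes, 8 were past the threshold, 7 of them higher and 1 lower in the libraries labeled LV-*ATF7*, beside 67.6% of all genes tested (34.7% higher and 32.9% lower). The CPM values of the groups did not overlap for 9 of the 10 genes, beside 72.7% of all genes (38.0% with LV-*ATF7* above and 34.7% with LV-*ATF7* below). The median log2 fold change was 1.92 for the 10 genes and 0.00 over all genes tested. All 10 genes passed the filter on low counts, *S100A8* only through the libraries labeled LV-*ATF7*, as did 3.96% of all genes tested. The test of such a gene is not independent of the filter, since at least 1 LV-NC library was too low to pass, so the genes named below that entered in this way are marked and given without a p-value. Together the 10 genes took 0.0426%, 0.0628% and 0.0613% of the counts in LV-NC and 0.151%, 0.152% and 0.160% in LV-*ATF7*.

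**Figure D1:**
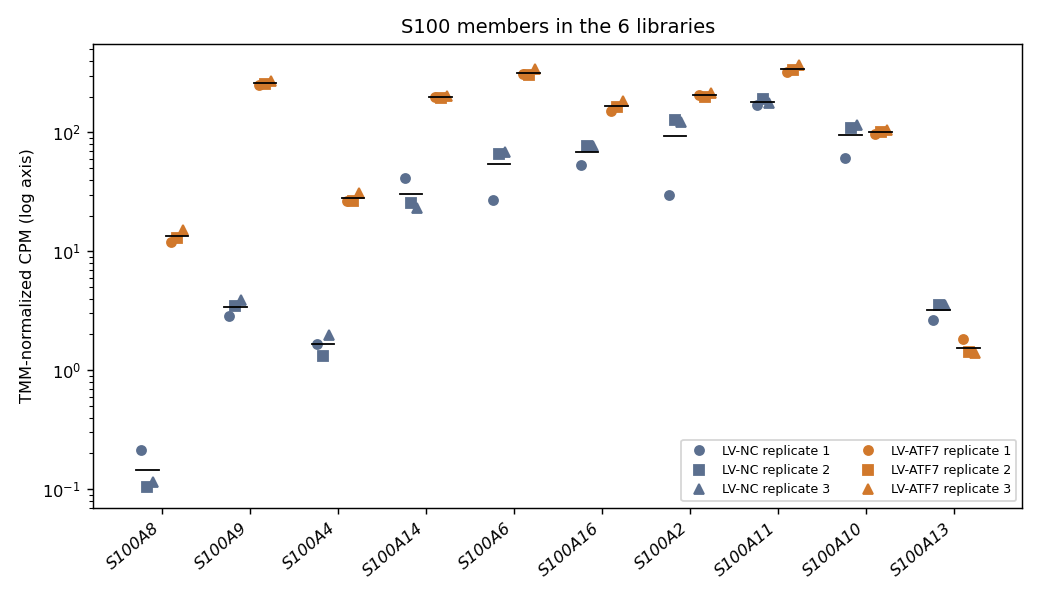
TMM-normalized CPM (vertical log axis) of the 10 S100 genes (horizontal axis, ordered by log2 fold change) in each LV-NC library (blue) and each LV-*ATF7* library (orange). Marker shape gives the replicate number and the horizontal bar the group mean. *S100A8* and *S100A9* lie farthest apart between the groups, *S100A10* overlaps, and *S100A13* lies below LV-NC.

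The stretch of 250 bases before the transcription start is shown for 4 of the genes, because *S100A8*, *S100A9* and *S100A4* had the largest fold changes and *S100A2* holds a site for AP-1, the family of factors that the ATF proteins can join. The sequences are from RefSeq, build GRCh38.p14, written 5′ to 3′ on the strand of the gene. They cover chr1:153391074-153391323 (minus strand) for *S100A8*, chr1:153357604-153357853 (plus strand) for *S100A9*, chr1:153545807-153546056 (minus strand) for *S100A4* and chr1:153565845-153566094 (minus strand) for *S100A2*. Capitals mark the TATA motif in *S100A8*, *S100A9* and *S100A4* and the AP-1 motif in *S100A2*. *S100A8* and *S100A2* have more than 1 listed start, and the stretch shown is one that holds the motif. Another stretch of *S100A8* has no TATA motif, and another of *S100A2* has no AP-1 motif.
S100A8: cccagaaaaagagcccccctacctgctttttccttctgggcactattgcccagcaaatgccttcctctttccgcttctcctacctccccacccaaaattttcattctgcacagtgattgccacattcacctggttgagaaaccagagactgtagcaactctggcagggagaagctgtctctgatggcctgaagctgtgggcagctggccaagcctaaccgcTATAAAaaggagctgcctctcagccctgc
S100A9: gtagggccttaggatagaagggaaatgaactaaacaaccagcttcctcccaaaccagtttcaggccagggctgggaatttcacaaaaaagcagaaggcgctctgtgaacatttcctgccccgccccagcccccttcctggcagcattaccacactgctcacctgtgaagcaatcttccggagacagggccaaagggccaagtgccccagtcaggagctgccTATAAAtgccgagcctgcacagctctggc
S100A4: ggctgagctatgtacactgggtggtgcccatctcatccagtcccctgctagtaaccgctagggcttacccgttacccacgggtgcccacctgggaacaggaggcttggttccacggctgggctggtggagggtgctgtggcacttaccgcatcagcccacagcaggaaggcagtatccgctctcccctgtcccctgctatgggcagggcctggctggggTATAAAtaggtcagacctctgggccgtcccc
S100A2: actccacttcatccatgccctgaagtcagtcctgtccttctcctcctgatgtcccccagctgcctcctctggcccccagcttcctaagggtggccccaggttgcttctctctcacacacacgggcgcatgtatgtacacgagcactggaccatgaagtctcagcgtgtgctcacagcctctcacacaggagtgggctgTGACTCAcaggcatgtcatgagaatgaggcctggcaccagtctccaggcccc

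The letters searched, on both strands, were TATAAA for the TATA motif, TGANTCA for AP-1, TTGCNNAA for C/EBP and TGACGTCA for the CRE that ATF proteins are known to bind. Of the 10 genes, 4 held TATAAA in at least 1 of their listed promoter windows, beside 13% of 27305 genes, and it stood in 5 of their 16 windows, with the same match in 2 overlapping windows of *S100A8*, beside 10.7% of all 35116 windows of this length. It stood 29 to 24 bases before the start in *S100A8*, *S100A9* and *S100A13* and 31 to 26 bases before it in *S100A4*. The 4 genes with this match thus include the 3 largest positive fold changes and also *S100A13*, the gene that was lower. Only the exact letters were searched. The windows of *S100A6* and *S100A14* hold TATAAG, which differs in the last letter and was not counted. The AP-1 letters were found only in *S100A2*, 52 to 46 bases before the start, beside 8.06% of all genes and 6.57% of all windows. The C/EBP letters were found only in *S100A11*, beside 11% of all genes and 9.05% of all windows. The CRE letters were in 0 of the 16 windows and in 1.65% of all windows.

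*S100A8* and *S100A9* encode the subunits of calprotectin, a heterodimer that binds calcium and withholds zinc and manganese from microbes. *S100A8* (ENSG00000143546, chr1:153390032-153391188, minus strand, GRCh38) was at 0.214, 0.105 and 0.116 CPM in LV-NC, which is 4, 2 and 2 counts, and at 11.9, 13.05 and 15.0 CPM in LV-*ATF7*, which is 213, 256 and 272 counts. It was close to absent from every LV-NC library and clearly present in every LV-*ATF7* library. The log2 fold change was 6.45 (SE 0.28), and the summed counts of 741 and 8 give a ratio of 91.6 after TMM scaling (95% exact interval 46.3 to 213, which covers counting error only). *S100A9* (ENSG00000163220, chr1:153357854-153361027, plus strand) was at 2.84, 3.46 and 3.88 CPM in LV-NC and 251, 256 and 271 CPM in LV-*ATF7*. Its log2 fold change was 6.26 (SE 0.14), or 76.5-fold, and no LV-NC library came near the lowest LV-*ATF7* library. Per kilobase of exon, the ratio of *S100A9* to *S100A8* was 23.1, 57.6 and 58.4 in LV-NC, where *S100A8* rests on at most 4 counts per library, and 36.9, 34.2 and 31.4 in LV-*ATF7*. *S100A9* was thus the more abundant calprotectin subunit in all 6 libraries, and the ratios of the groups overlapped.

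*S100A4*, known as metastasin, binds the heavy chain of nonmuscle myosin and is a usual marker of motile and mesenchymal cells. Its level (chr1:153543613-153550136, minus strand) was 1.66, 1.31 and 1.97 CPM in LV-NC and 26.7, 26.3 and 30.9 CPM in LV-*ATF7*. The log2 fold change was 4.08 (SE 0.19), or 16.97-fold, the third in size of the 10. *S100A6*, or calcyclin, is a growth-linked member that binds annexins and CACYBP, and among the genes of the table it lies beside *S100A4* (chr1:153534599-153536244, minus strand). It was at 27.2, 66.1 and 68.1 CPM in LV-NC and 309, 306 and 339 CPM in LV-*ATF7*, with a log2 fold change of 2.56 (SE 0.31). LV-NC replicate 1 was the low library, at 0.405 times the mean of the other LV-NC libraries, and without it the log2 fold change was 2.22. BX470102.1 on the opposite strand shares 2.37% of the exon bases of *S100A6*.

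*S100A14*, an epithelial member, and *S100A16*, which is broadly expressed, lie next to each other, at chr1:153614255-153616986 and chr1:153606886-153613145, both on the minus strand. *S100A14* was at 41.7, 25.3 and 23.3 CPM in LV-NC and 198, 193 and 203 CPM in LV-*ATF7*, with a log2 fold change of 2.72 (SE 0.21). Here LV-NC replicate 1 was the high library of its group, 1.71 times the mean of the others, and without it the log2 fold change was 3.0. *S100A16* was at 52.7, 77.3 and 76.8 CPM in LV-NC and 152, 164 and 185 CPM in LV-*ATF7*, with a log2 fold change of 1.28 (SE 0.16). The groups did not overlap for either gene.

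*S100A11*, a substrate of the cornified envelope that also binds ANXA1, was already abundant in LV-NC. It (chr1:152032506-152047907, minus strand) was at 169, 189 and 178 CPM in LV-NC and 322, 333 and 368 CPM in LV-*ATF7*. The log2 fold change was 0.93 (SE 0.096), or 1.91-fold, and LV-NC replicate 1 was close to the other LV-NC libraries. *S100A2*, a nuclear member of basal keratinocytes known as a target of *TP63*, was the least even gene. It (chr1:153561108-153567890, minus strand) was at 29.8, 127 and 122 CPM in LV-NC and 205, 197 and 215 CPM in LV-*ATF7*. The groups did not overlap, but LV-NC replicate 1 was at 0.24 times the mean of the other LV-NC libraries, and the log2 fold change of 1.15 (SE 0.45) left *S100A2* short of the threshold. It was 0.70 without LV-NC replicate 1 and 1.42 without LV-NC replicate 2, and in both cases *S100A2* was past the threshold.

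*S100A10*, or p11, has lost calcium binding and sits in a complex with ANXA2 at the plasma membrane. Its level (chr1:151982915-151994390, minus strand) was 60.3, 109 and 115 CPM in LV-NC and 97.9, 100.2 and 105 CPM in LV-*ATF7*. The groups overlapped, and the log2 fold change was 0.10 (SE 0.22). Without LV-NC replicate 1 it was −0.17 and past the threshold, so its direction is not settled by these data. It was also −0.06 with scaling by library size only and −0.14 by limma with sample quality weights, and 10 of 13 alternative settings kept the positive sign.

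*S100A13* carries *FGF1* and *IL1A* out of the cell by a route that needs no signal peptide, and it was the 1 gene of the 10 that was lower in LV-*ATF7*. It (chr1:153618787-153631360, minus strand) was at 2.62, 3.51 and 3.53 CPM in LV-NC, or 49, 67 and 61 counts, and at 1.84, 1.43 and 1.38 CPM in LV-*ATF7*, or 33, 28 and 25 counts. The log2 fold change was −1.05 (SE 0.24), and the groups did not overlap. These counts are uncertain, since 33.5% of its exon bases are shared with other genes, 24.2% with AL162258.1 on the same strand and 10.6% with *S100A1* on the opposite strand, and whether the counting used strand is not given in the sources used here.

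Levels of different genes were compared per kilobase of exons counted once. In LV-NC the order was *S100A11* at 263 ± 15 CPM per kb, *S100A10* at 61.3 ± 19, *S100A2* at 59.3 ± 35, *S100A6* at 55.4 ± 24, *S100A16* at 40.5 ± 8.3, *S100A14* at 23.6 ± 7.9, *S100A9* at 5.88 ± 0.91, *S100A4* at 1.61 ± 0.32, *S100A13* at 1.45 ± 0.23 and *S100A8* at 0.144 ± 0.06 CPM per kb. Neighbors overlapped in 5 of 9 places, from *S100A10* down to *S100A14* and between *S100A4* and *S100A13*, so the middle of this order is not settled by 3 libraries. In LV-*ATF7* the order was *S100A11* at 502 ± 35 CPM per kb, *S100A9* at 449.7 ± 18, *S100A6* at 328 ± 19, *S100A14* at 155 ± 3.9, *S100A2* at 131 ± 5.5, *S100A16* at 98.1 ± 9.9, *S100A10* at 65.5 ± 2.4, *S100A4* at 27.3 ± 2.5, *S100A8* at 13.2 ± 1.6 and *S100A13* at 0.700 ± 0.11 CPM per kb, with no overlap between neighbors. *S100A9* moved from the seventh place to the second and *S100A10* from the second to the seventh. The order depends on the gene length used: by the authors' deposited FPKM values, *S100A9* (mean 427) stood above *S100A11* (mean 287) in LV-*ATF7*.

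As a share of the summed CPM per kb of the 10 genes, *S100A11* made up 61.1%, 48.6% and 46.9% in LV-NC and 27.8%, 28.4% and 28.8% in LV-*ATF7*. *S100A9* made up 1.21%, 1.05% and 1.21% in LV-NC and 25.5%, 25.7% and 24.99% in LV-*ATF7*. These shares too depend on the gene length, and by the deposited FPKM values *S100A9* made up 1.97% to 2.26% in LV-NC and 41.7% to 42.7% in LV-*ATF7*, and *S100A6* 4.77% to 8.87% and 11.4% to 11.7%. In LV-NC the S100 transcripts were thus mainly *S100A11*, with smaller parts of *S100A10*, *S100A2* and *S100A6*, and in LV-*ATF7* *S100A11*, *S100A9* and *S100A6* together held most of them. *S100A6* went from 10.5% ± 3.1 to 18.5% ± 0.22 and *S100A10* from 11.8% ± 1.9 to 3.70% ± 0.070. *S100A8* stayed a small part, at 0.0305% ± 0.019 and 0.747% ± 0.051. The coefficient of variation between libraries was larger in LV-NC for 8 of the 10 genes, beside 72.7% of all genes, with a median of 26.0% in LV-NC and 6.37% in LV-*ATF7* for the 10 genes and of 14.4% and 7.64% for all genes.

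**Figure D2:**
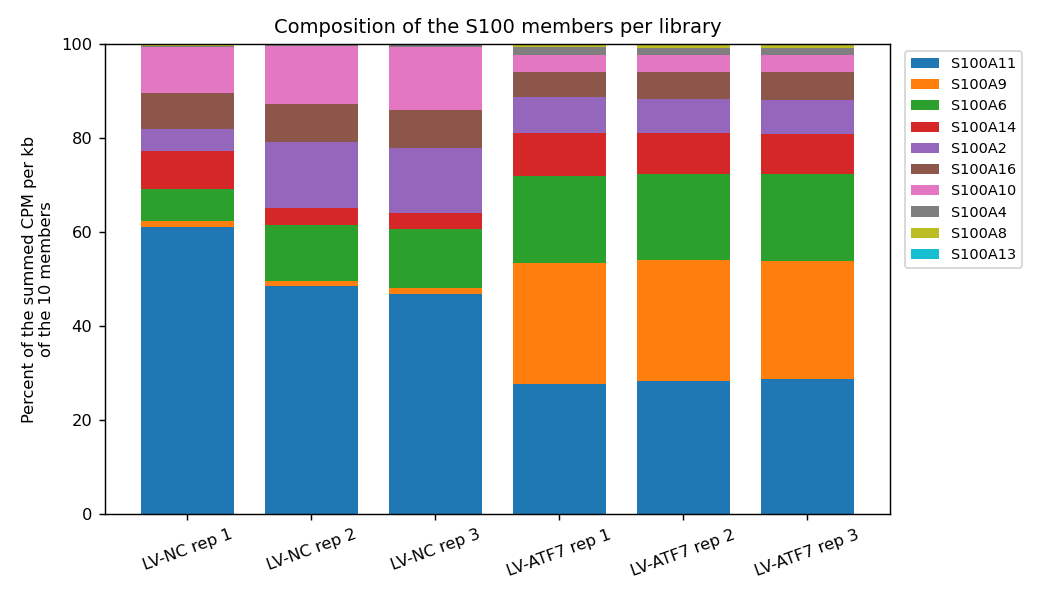
Percent of the summed CPM per kilobase of the 10 S100 genes (vertical axis) that each gene makes up in each of the 6 libraries (horizontal axis). The *S100A9* segment is near 1% in the LV-NC libraries and near 25% in the LV-*ATF7* libraries, and LV-NC replicate 1 has the largest *S100A11* segment, at 61.1%.

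The 10 genes span 1648446 bases of chromosome 1, and 9 other genes of the table lie wholly between *S100A10* and *S100A13*. Of these, 7 were higher in LV-*ATF7*, 1 was lower and 1 was not past the threshold, beside 34.7% higher and 32.9% lower of all genes tested, with a median log2 fold change of 5.28. Of the 9, 5 entered the test only through the LV-*ATF7* libraries (*S100A7*, *S100A7A*, *HRNR*, *FLG2* and *PGLYRP4*), beside 3.96% of all genes tested. The count of higher genes and the median are therefore not independent of the filter. Of the 4 that passed through both groups, *FLG* and *S100A3* were higher, *IVL* was lower and *TCHH* was not past the threshold. The largest differences were those of *S100A7*, *S100A7A* and *HRNR*, given below, and the gene that was lower was *IVL*, which encodes the envelope protein involucrin, at 13.2, 5.92 and 5.56 CPM in LV-NC and 1.95, 1.48 and 2.27 CPM in LV-*ATF7* (log2 fold change −2.11, SE 0.38, edgeR adjusted p = 0.00151). Without LV-NC replicate 1, the log2 fold change of *IVL* was −1.62. Position along the cluster did not order the fold changes in a simple run. *S100A10* and *S100A11* at the far end had small ones, the stretch that holds *S100A9*, *S100A8*, *S100A7A* and *S100A7* had log2 fold changes from 6.26 to 7.38, and *S100A13* at the other end was negative.

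**Figure D3:**
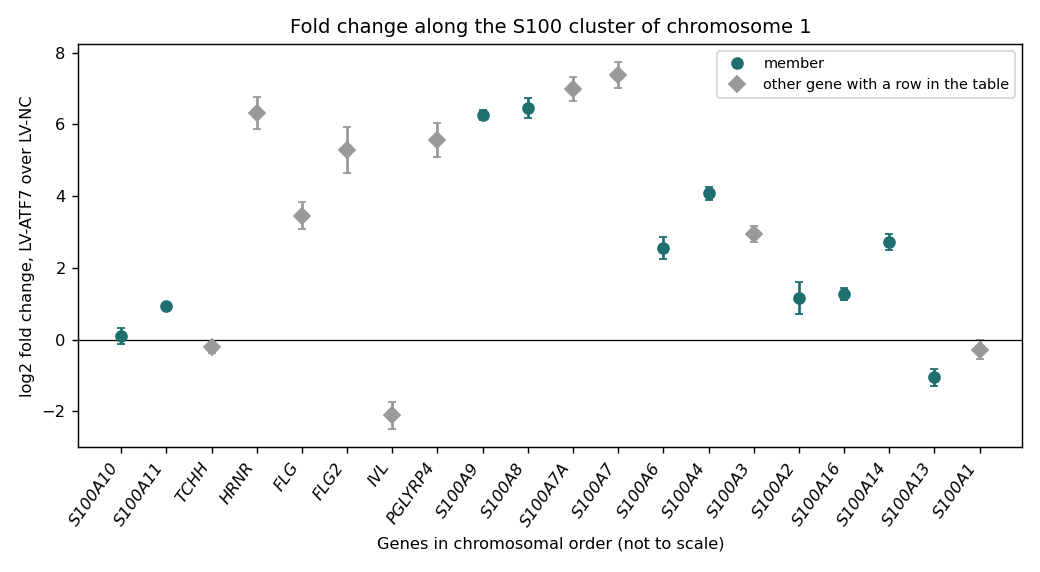
Log2 fold change, LV-*ATF7* against LV-NC (vertical axis, bars are ± 1 SE) for the 10 S100 genes (circles) and the other genes of the table in the cluster (diamonds), in chromosomal order and not to scale. *S100A1*, the last diamond, overlaps *S100A13* and reaches past it. The values rise to 7.38 at *S100A7* and fall below 0 at *TCHH*, *IVL*, *S100A13* and *S100A1*.

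Of 11 other S100 genes, 5 had a row in the table, and 4 of them were higher in LV-*ATF7*, beside 34.7% of all genes, and 1 was not past the threshold. *S100A7*, *S100A7A* and *S100P* entered the test only through the LV-*ATF7* libraries, so the count of higher genes is not independent of the filter. *S100A7*, or psoriasin, an antimicrobial protein of inflamed epidermis, was at 1.02, 0.315 and 0.174 CPM in LV-NC and 85.6, 83.4 and 88.2 CPM in LV-*ATF7* (log2 fold change 7.38, SE 0.35). It was 8.38 without LV-NC replicate 1. Its near-identical copy *S100A7A* was at 0.428, 0.0524 and 0.289 CPM in LV-NC and 32.8, 32.0 and 35.1 CPM in LV-*ATF7* (log2 fold change 6.99, SE 0.34), and how reads were divided between them is uncertain. Both thus lay on the side of *S100A8* and *S100A9*. *S100P*, which lies outside the cluster and is best known from placenta and carcinomas, was at 0.161, 1.31 and 1.33 CPM in LV-NC and 10.2, 9.28 and 13.7 CPM in LV-*ATF7* (log2 fold change 3.56, SE 0.49). Without LV-NC replicate 1, the log2 fold change of *S100P* was 3.04. *S100A3*, a hair cuticle protein whose gene lies within the span of *S100A4*, was at 0.910, 1.36 and 0.868 CPM in LV-NC and 8.15, 7.44 and 8.96 CPM in LV-*ATF7* (log2 fold change 2.95, SE 0.23, edgeR adjusted p = 1.84e-05). *S100A1*, best known from heart muscle, overlapped between groups, with a log2 fold change of −0.28 (SE 0.26, edgeR adjusted p = 0.377). Per kilobase *S100A7* stood at 0.936 CPM in LV-NC and 160 CPM in LV-*ATF7*, where *S100A14* stood at 155 CPM.

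The S100 fused-type genes, such as filaggrin, join an S100 domain to long repeats and build the cornified layer. Of 7 listed, 4 had a row, 3 were higher in LV-*ATF7*, beside 34.7% of all genes, and 1 was not past the threshold. *HRNR* and *FLG2* entered the test only through the LV-*ATF7* libraries, so here too the count of higher genes is not independent of the filter. *HRNR*, or hornerin, had 3 counts in all LV-NC libraries together, with a ratio of 89.7 after TMM scaling (95% exact interval 30.4 to 438) and a log2 fold change of 6.32 (SE 0.44). *FLG2* also had 3 counts in LV-NC, with a ratio of 43.5 (95% exact interval 14.6 to 214) and a log2 fold change of 5.28 (SE 0.65). *FLG*, filaggrin itself, was at 0.803, 1.31 and 3.01 CPM in LV-NC and 18.4, 18.4 and 19.2 CPM in LV-*ATF7* (log2 fold change 3.46, SE 0.38, edgeR adjusted p = 1.07e-04). The fold changes depended on 1 library, with values of 7.11 for *HRNR* without LV-NC replicate 2, and of 6.13 for *FLG2* and 4.09 for *FLG* without LV-NC replicate 3. *TCHH*, trichohyalin of the hair follicle, had a log2 fold change of −0.21 (SE 0.16, edgeR adjusted p = 0.254).

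Of 12 genes of receptors known to bind extracellular S100 proteins, 8 were tested, 4 were higher, 2 were lower and 2 were not past the threshold, with a median log2 fold change of 0.83. The share past the threshold was 75%, near the 67.6% of all genes, and *ERBB4* and *CD36* entered the test only through the LV-*ATF7* libraries. Both of the receptors most often tied to calprotectin, *AGER* (RAGE) and *TLR4*, were low. *AGER* was at 2.94, 1.99 and 1.79 CPM in LV-NC and 5.75, 4.43 and 6.25 CPM in LV-*ATF7* (log2 fold change 1.28, SE 0.25, edgeR adjusted p = 0.00229), and *TLR4* at 0.589, 1.10 and 0.637 CPM and 0.893, 0.917 and 1.22 CPM (log2 fold change 0.37, SE 0.35, edgeR adjusted p = 0.376). These 2 and *ANXA2* below are outside the rule for naming genes and were picked after their values were seen. *CD14*, the coreceptor of *TLR4*, was at 1.61, 1.73 and 1.51 CPM in LV-NC and 7.09, 7.85 and 9.57 CPM in LV-*ATF7* (log2 fold change 2.33, SE 0.20, edgeR adjusted p = 2.84e-05). *ERBB4*, an EGF-family receptor, had the largest difference (log2 fold change 4.0, SE 0.58), from at most 0.579 CPM in any LV-NC library, with 3.37 without LV-NC replicate 2 and 4.69 without LV-NC replicate 3. *CD36*, a scavenger receptor, had 7 counts over LV-NC, with a ratio of 14 (95% exact interval 6.54 to 35.7), a log2 fold change of 3.74 (SE 0.58) and one of 4.84 without LV-NC replicate 1. The receptors that were lower were far more abundant. *BSG*, or basigin, a receptor of S100A9, was at 1244, 1787 and 1777 CPM in LV-NC and 740.4, 781 and 896 CPM in LV-*ATF7* (log2 fold change −0.99, SE 0.16, edgeR adjusted p = 8.97e-04). Its relative *NPTN*, a receptor of S100A8, was at 247, 266 and 271 CPM in LV-NC and 186, 183 and 180.1 CPM in LV-*ATF7* (log2 fold change −0.52, SE 0.084, edgeR adjusted p = 8.37e-04).

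Of 19 genes of intracellular targets and carriers, 18 were tested, 7 were higher, 5 were lower and 6 were not past the threshold, with a median log2 fold change of −0.26. The share past the threshold was 66.7%, near the 67.6% of all genes. Without LV-NC replicate 1, 7 were higher and 9 lower, and with scaling by library size only, 6 were higher and 8 lower. *FGF1* and *IL1A*, the cargo of S100A13, both had higher values in LV-*ATF7*, and *S100A13* had lower ones. *FGF1* entered the test only through the LV-*ATF7* libraries and had 2 counts over LV-NC, with a ratio of 38.6 (95% exact interval 10.3 to 324) and a log2 fold change of 5.03 (SE 0.54). *IL1A*, an alarm cytokine of keratinocytes, was at 28.9, 9.91 and 9.03 CPM in LV-NC and 115, 111 and 92.5 CPM in LV-*ATF7* (log2 fold change 2.74, SE 0.42, edgeR adjusted p = 6.26e-04), with 3.47 without LV-NC replicate 1. *S100PBP*, which encodes a protein that binds S100P, was at 13.8, 11.4 and 11.2 CPM in LV-NC and 31.4, 32.8 and 29.5 CPM in LV-*ATF7* (log2 fold change 1.36, SE 0.13, edgeR adjusted p = 5.16e-05). *MYH9*, the myosin heavy chain that S100A4 binds, went the other way from *S100A4*. It was at 1593, 1959 and 2048 CPM in LV-NC and 715, 739 and 791 CPM in LV-*ATF7* (log2 fold change −1.32, SE 0.13, edgeR adjusted p = 5.30e-05). *STIP1* and *SUGT1*, cochaperones that S100 proteins bind, were lower by smaller amounts, with log2 fold changes of −0.72 (SE 0.15) and −0.66 (SE 0.11) and edgeR adjusted p-values of 0.00322 and 0.00105. *ANXA2*, the partner of S100A10, was at 813, 1376 and 1310.2 CPM in LV-NC and 897, 895 and 935 CPM in LV-*ATF7* (log2 fold change −0.36, SE 0.19, edgeR adjusted p = 0.127), and without LV-NC replicate 1 the log2 fold change was −0.58 (edgeR adjusted p = 2.80e-09). Like *S100A10*, *ANXA2* was lowest in LV-NC replicate 1 and steady over the LV-*ATF7* libraries.

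Of 19 genes of factors known to act on S100 genes, 18 were tested, 7 were higher, 7 were lower and 4 were not past the threshold, with a median log2 fold change of 0.05. The share past the threshold was 77.8%, beside 67.6% of all genes. Without LV-*ATF7* replicate 1 or replicate 2, 4 were lower, and with scaling by library size only, 5 were higher. *TP63*, the master factor of stratified epithelium, was at 18.3, 12.6 and 15.7 CPM in LV-NC and 238, 237 and 219 CPM in LV-*ATF7* (log2 fold change 3.90, SE 0.15, edgeR adjusted p = 1.18e-06). *CEBPD*, a C/EBP factor of stress and inflammation, was at 37.5, 27.6 and 25.9 CPM in LV-NC and 399, 423 and 466 CPM in LV-*ATF7* (log2 fold change 3.82, SE 0.16, edgeR adjusted p = 1.66e-06). Within the AP-1 family, *FOSL2* was higher (log2 fold change 1.0, SE 0.097, edgeR adjusted p = 5.75e-05), whereas *FOSL1* was at 73.8, 158 and 153 CPM in LV-NC and 29.03, 34.2 and 36.6 CPM in LV-*ATF7* (log2 fold change −1.95, SE 0.28, edgeR adjusted p = 4.11e-04). Without LV-NC replicate 1, the log2 fold change of *FOSL1* was −2.24. *KLF4*, a factor of terminal differentiation, was at 213, 108 and 112 CPM in LV-NC and 67.3, 65.8 and 67.0 CPM in LV-*ATF7* (log2 fold change −1.11, SE 0.25, edgeR adjusted p = 0.00453), with −0.74 without LV-NC replicate 1. *GRHL3*, a factor of barrier formation, had a log2 fold change of −1.57 (SE 0.58, edgeR adjusted p = 0.0411), but its groups overlapped and the call was lost without LV-NC replicate 2, LV-NC replicate 3 or any LV-*ATF7* library (edgeR adjusted p = 0.100 to 0.125).

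**Figure D4:**
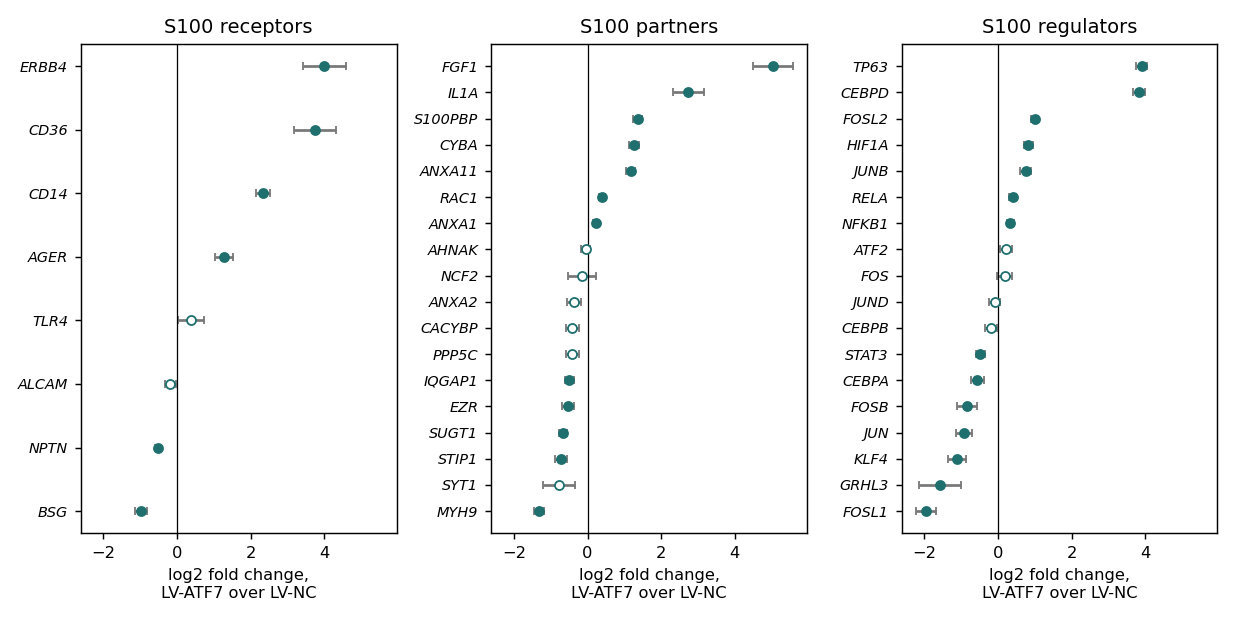
Log2 fold change, LV-*ATF7* against LV-NC (horizontal axes, bars are ± 1 SE) for the tested genes of S100 receptors, partners and regulators. Filled circles were past the threshold and open circles were not, and each list holds genes on both sides of 0, from −1.95 for *FOSL1* to 5.03 for *FGF1*.

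The genes whose pattern over the 6 libraries was most like that of *S100A8*, by the root mean square difference of log2 CPM (prior count 2) centered on each gene's mean, were *TNFAIP2* at 0.11, *CD200R1L* at 0.16 and *PRODH* (ENSG00000277196) at 0.22. For *S100A9* they were *POU2AF1* at 0.16, *CCL17* at 0.21 and *TNFAIP2* at 0.29. *TNFAIP2* was at 122, 90.9 and 93.8 CPM in LV-NC and 5812, 6063 and 6751 CPM in LV-*ATF7*, far above either S100 gene, so the likeness is of relative levels only. *POU2AF1* had no count in LV-NC and 8.65, 9.38 and 8.24 CPM in LV-*ATF7*. *CD200R1L* and *POU2AF1* had at most 1 count in any LV-NC library, where their centered values depend on the prior count. *S100A8* itself had 4, 2 and 2 counts in LV-NC, and *CCL17* was at most at 0.315 CPM there. The ranking for *S100A8* and the place of *CCL17* therefore depend on the prior count as well.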

How the data were processed

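HaCaT mRNA was captured on oligo(dT) beads and sequenced as 6 libraries, grouped by their deposited labels. Raw gene counts were deposited by the authors, together with FPKM values, fold changes and p-values; the build is GRCh38 per the submitters' processing notes in the labels, and the aligner, counter, annotation and strandedness are not given in the sources used here. The authors' fold changes and p-values, of LV-NC against LV-*ATF7*, were not used. The gene length behind the deposited FPKM was, at the median, 2.61 times the length of exons counted once and 1.0 times the exons of all transcripts summed, so FPKM served only as an alternative for the order of levels. Symbols were blank for 33 genes, 12485 identifiers were found in GENCODE release 29, which gave positions and lengths, and every gene had at least 51 counts over the 6 libraries.

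LV-*ATF7* was tested against LV-NC by the quasi-likelihood test of edgeR 4.0.16 in R 4.3.3 after TMM scaling, with no covariate. The filterByExpr step kept 12462 genes and dropped 37, and p-values were adjusted over those kept (Benjamini-Hochberg). The SE is the log2 fold change divided by the square root of F. The script was tested on simulated counts. Ratios of summed counts carry 95% exact intervals, which cover counting error only, as reads are not independent molecules. Alternatives were DESeq2 1.42.0, limma 3.58.1 voom with sample quality weights, other scalings and filters, a replicate block and leaving out each library. The data did not settle whether the replicate numbers pair the samples.

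The members and lists were chosen with earlier results of these data known, and lists were not tested as sets. A gene first listed among the partners is not reported here and is in none of the counts of that list. Named genes are all 10 S100 genes, *ATF7* and, in each list, up to 3 genes in each direction with the largest fold change past the threshold. All genes of lists with at most 6 tested genes are also named. So are the 3 genes outside the 10 most like each of *S100A8* and *S100A9*. Among the keratinocyte markers, *SFN* was named outside this rule. *KRT10*, which falls under it, had a log2 fold change of −0.55. Outliers were not tested in groups of 3.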

Additional observations from a re-analysis of the deposited data

How the results depend on the processing

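Of the 10 S100 genes, 7 to 10 were past the threshold over all alternatives and 8 to 10 without 1 library (10 without LV-NC replicate 1, 9 without LV-NC replicate 2), and of all genes 7290 to 10391. The sign of the log2 fold change was the same in every alternative for each of the 10 genes but *S100A10* (−0.17 to 0.22). The ranges were 6.23 to 6.81 for *S100A8*, 6.09 to 6.32 for *S100A9*, 0.70 to 1.42 for *S100A2* and −1.21 to −0.98 for *S100A13*. *S100A8* has no value when at least 10 counts are required in every library. That filter tests fewer genes, and past the threshold were 1 of the 2 other S100 genes, 1 of the 2 fused-type genes and 3 of the 4 neighboring genes still tested. Scaling by library size only shifted the all-gene median of the log2 fold change by −0.16, and 42.4% in place of 51.3% of the genes past the threshold were then higher in LV-*ATF7*. The share of the 10 genes in LV-*ATF7* was 0.165% of counts without the 10 most abundant genes of each library. Of the 10 places in the order of levels, 6 in LV-NC and 2 in LV-*ATF7* stayed the same with the length in the deposited FPKM values, and 6 in LV-*ATF7* with the longest transcript.

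Deviations of samples with the same replicate number had correlations of 0.058, −0.021 and 0.065, and 4 of 6 samples correlated best with their own number across groups. With 3 libraries per group, these values do not settle whether the numbers pair the samples. The submitters' library names carry different numbers for LV-NC replicate 3 and LV-*ATF7* replicate 3, which the block below puts together. In a fit with a replicate block, 8210 genes were past the threshold, and 9 of the 10 S100 genes, 4 other S100 genes, 3 fused-type genes, 6 receptors, 12 partners, 13 regulators and 8 neighboring genes. *S100A2* was the S100 gene that the block added, and among receptors, partners and regulators it lost *GRHL3* and *ANXA1* and added *PPP5C*. At this depth *S100A8* in LV-NC, *HRNR*, *FLG2*, *CD36* and *FGF1* rest on at most 8 counts over a group, so the size of their fold change is loose.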
